A study of Rattus norvegicus with 12 samples.

Results

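Fragments of transfer RNA (tRNA) genes for amino acids other than glycine, valine, lysine, glutamate and histidine were measured in small RNA from rat serum exosomes. Members were chosen by name alone: every feature of the count tables that is named as a tRNA gene and whose label does not start with Gly, Val, Lys, Glu or His. This gave 204 tRNA genes in 37 anticodon labels among 3280 features in the table of the Water and EGME libraries, and 212 genes in 35 labels among 1709 features in the table of the Oil and CBZ libraries. Of these, 171 genes and 34 anticodons were in both tables. The 12 libraries came from male Sprague-Dawley rats aged 9 weeks, 3 libraries in each of 4 groups, all from blood taken 24 h after a single oral dose. The EGME group (ethylene glycol monomethyl ether, a solvent toxic to the testis) received 2000 mg/kg in water, and the Water group its vehicle (10 mL/kg). The group the labels call CBZ, another toxicant of the testis, received 400 mg/kg in corn oil, and the Oil group its vehicle (5 mL/kg). The exosome pellet was made by ultracentrifugation, which also brings down RNA bound to protein particles, and no RNA marker in these tables defines an exosome. Whether each numbered library comes from its own animal is not stated. The p-values here set differences between groups against the spread of libraries within groups, which may be technical only.

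A tRNA carries 1 amino acid to the ribosome and reads codons through its anticodon. Under stress, nucleases such as angiogenin cut mature tRNAs in the anticodon loop, and shorter fragments arise from either end. Such fragments circulate in serum, in vesicles and in protein complexes, and they are also abundant in sperm and in the vesicles of the epididymis. The serum pool is known to be dominated by fragments of a few tRNAs, chiefly those for glycine, valine, glutamate, lysine and histidine, and the tRNAs described here are the scarce remainder. The tables give a gene name and a count of reads, without read sequences or lengths, so longer and shorter fragments and whole tRNAs cannot be told apart.

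The members were scarce in every library. The Water and EGME libraries had 608892 to 1235814 assigned counts each, and the Oil and CBZ libraries 196460 to 598200. With near-identical gene copies counted once within each anticodon, the members held 3813 reads over the 6 libraries of the EGME table. The 11 glycine, valine, lysine, glutamate and histidine anticodons held 415403. In the CBZ table the members held 2986 against 229551. Copies were not merged between anticodons. The leading genes of the glycine anticodons GlyCCC and GlyGCC had 185876 and 185959 reads in the EGME table, and 100896 and 100910 in the CBZ table. These may be nearly the same reads, counted more than once in the tRNA totals. On that account alone the member shares given here may be too low. Member reads shared by gene copies may also be counted more than once, which would make the shares too high. CysGCA (cysteine), for example, had 797 summed reads in the EGME table and 108 in its leading gene. The direction of the error is therefore not known. Out of all counts they made up 0.0806%, 0.130% and 0.139% with Water and 0.0707%, 0.0699% and 0.0691% with EGME, so every EGME library was below every Water library. As a share of tRNA counts the order was different: 0.899%, 0.834% and 0.791% with Water and 1.81%, 0.705% and 1.49% with EGME, with EGME libraries on both sides of Water. In the other table the share of all counts was 0.147%, 0.353% and 0.110% with Oil and 0.152%, 0.197% and 0.154% with CBZ. Oil library 2 stood apart, at 0.353% (exact 95% Clopper-Pearson interval 0.325 to 0.383). It was the shallowest library. With every tRNA copy counted, 26.7% of its counts were ribosomal RNA (rRNA), against 1.67% to 5.03% in the other libraries of its table. Such intervals cover counting error only and are probably too narrow here, because reads shared by gene copies may enter more than once. Summed shares over the members were not tested.

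**Figure D1:**
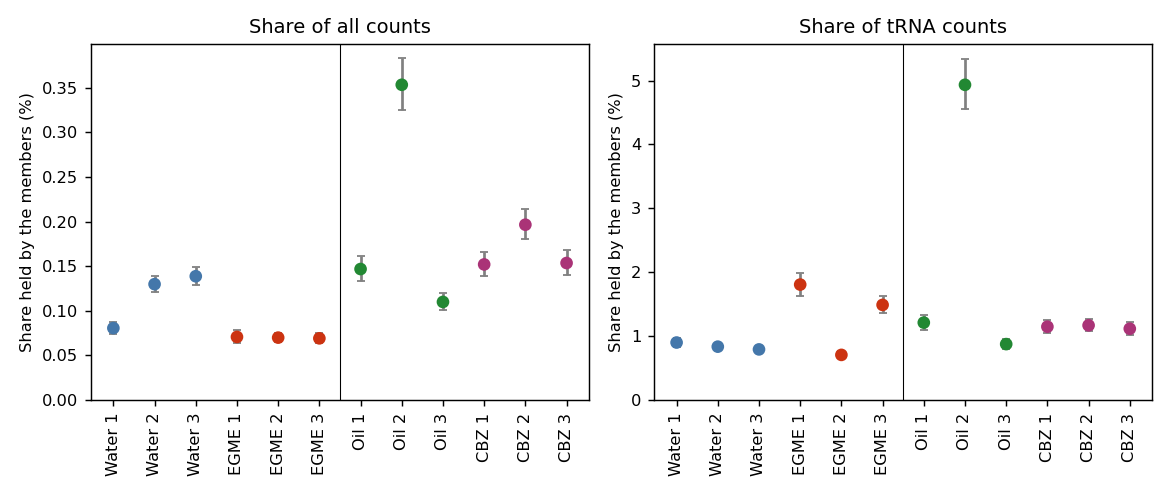
Share of all counts (left) and of tRNA counts (right) held by the members, in percent, in each of the 12 libraries. Near-identical gene copies enter once within each anticodon, and bars are exact 95% binomial intervals. Oil library 2 stands at 0.353% of all counts and 4.93% of tRNA counts, above all other libraries.

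Few anticodons carried these reads. In the EGME table CysGCA (cysteine), GlnCTG (glutamine) and the selenocysteine tRNA SeC(e)TCA held 47.8% of the member reads. In the CBZ table CysGCA, SerAGA (serine) and MetCAT (methionine) held 44.2%. These shares are of summed counts, in which similar gene copies with few reads mostly stay apart. By the gene with the most reads the order differed. In the EGME table it was SeC(e)TCA (317), LeuTAG (leucine, 131), GlnCTG (109) and CysGCA (108). In the CBZ table it was led by SeC(e)TCA (150), CysGCA (95) and LeuTAG (84), with SerAGA at 73 and MetCAT at 32. At 20 or more reads over the 6 libraries, 24 of 37 anticodons were tested in the EGME table and 21 of 35 in the CBZ table, with medians of 115 and 84 reads. The 13 untested EGME anticodons held 82 reads in all, among them AsnGTT (18 reads), LeuTAA (15) and ArgTCG (11), and 1 gene with an undetermined anticodon had 1 read. The 14 untested CBZ anticodons held 116 reads, led by LeuTAA (19), AsnGTT (15) and ArgTCT (14). The serine anticodon SerAGA had 430 reads in the CBZ table and 5 in the EGME table, and SerTGA 151 and 3. There were 8 SerAGA and 4 SerTGA genes listed with CBZ and Oil and 1 of each with EGME and Water, so this contrast is one of which genes are listed and was not tested.

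Many anticodons were listed with several genes, and in some of them the genes with most reads had close to the same reads. CysGCA was listed with 29 genes in the EGME table, of which 7 genes on 4 chromosomes had 94 to 108 reads each and held 88.4% of the reads of that anticodon. SerAGA had 8 genes in the CBZ table, of which 6 had 67 to 73 reads each. Genes of SerAGA and SerTGA also met the tolerance used for copies (counts within 5 percent or 3 counts in every library), in 12 pairs of genes, so the serine anticodons may rest on nearly the same reads. The same held in the CBZ table for 10 pairs of a CysGCA gene and a gene of GluTTC, a glutamate anticodon outside the members, so CysGCA may share reads with it there. The rule for copies merged only genes with the same counts in every library when their mean was under 20 counts, which applied to most member genes. A summed count may therefore count shared reads several times, which the counts alone cannot settle. The value of the gene with the most reads is given beside it where the results turn on it. LeuTAG and SeC(e)TCA have 1 gene each and are free of this. In the EGME table CysGCA had the most genes listed (29) and the most reads (797), and LeuAAG, with 1 gene listed, had 7 reads. The number of genes did not always go with the reads. AlaAGC (alanine), with 16 genes listed and 92 named in RefSeq (assembly GRCr8), had 136 reads. LeuTAG, with 1 gene listed and 3 in RefSeq, had 131. By the chromosome in the gene names, 47 of the 204 genes of the EGME table lie on chromosome 17, 37 on chromosome 10 and 24 on chromosome 4.

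The first comparison asks which of these tRNA fragments differ in serum exosomes 24 h after EGME. Of 24 anticodons tested 1 fell, LeuTAG, and 0 rose (edgeR quasi-likelihood test, Benjamini-Hochberg adjusted p under 0.05 over 452 features). Over all 452 features 1.11% passed. At an unadjusted edgeR p under 0.05 there were 3 members, all lower, and over all features 9.73% were higher and 7.96% lower at that p (17.7% in all). LeuTAG is a leucine tRNA that reads CUA codons. It had 19, 60 and 30 reads in the Water libraries and 7, 8 and 7 in the EGME libraries. Every EGME library was below every Water library, and Water library 2 was well above the other Water libraries. Scaled by TMM (a library scaling that assumes most features are level), this was 49.7 ± 29.0 CPM (counts scaled to a common library size) with Water and 11.4 ± 1.76 with EGME (SD, n = 3 per group), a log2 difference of -2.13 (SE 0.485, edgeR adjusted p = 0.0257). The call was lost in 8 of 21 settings, among them without Water library 2 (log2 difference -1.69, edgeR adjusted p = 0.0722), without EGME library 1 (-2.28, adjusted p = 0.197), with upper quartile scaling (adjusted p = 0.115), with the filterByExpr filter of edgeR (0.0569), with every gene copy counted (0.0518), with all 12 libraries in 1 fit (0.102) and with limma, run on normalized values from the authors (0.157). The log2 difference stayed between -2.49 and -1.58 in all 21 settings. In such pellets fewer particles and less RNA per particle cannot be told apart.

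**Figure D2:**
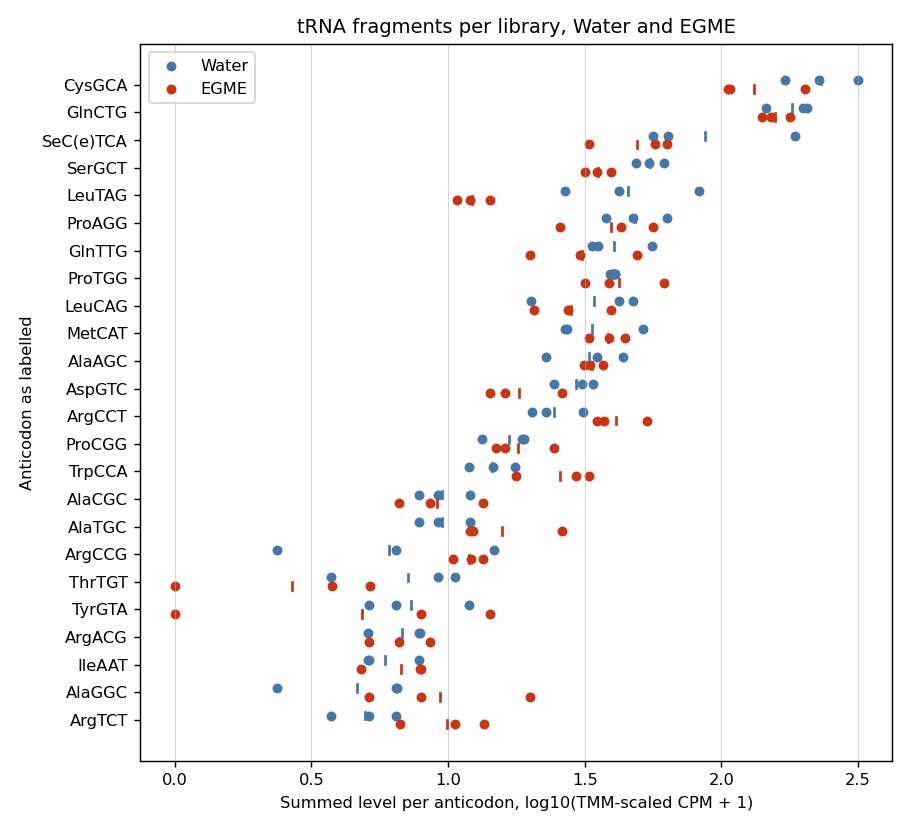
Level of each tested anticodon in the 3 Water and 3 EGME libraries, as log10 of TMM-scaled CPM plus 1, with points for libraries and vertical marks for group means of the plotted values. LeuTAG separates, with 25.9 to 82.0 CPM with Water and 9.79 to 13.3 with EGME, while most other anticodons overlap.

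LeuTAG belongs with the leucine, serine and selenocysteine tRNAs, which have a long variable arm. Of 10 such anticodons listed, 4 were tested, 4 were lower, and only LeuTAG passed the test (median log2 difference -0.83, against 0.08 over all features tested). SeC(e)TCA, the tRNA that inserts selenocysteine at UGA codons of selenoproteins, had 46, 135 and 40 reads with Water and 33, 23 and 40 with EGME. The groups overlapped, and the high Water value was that of library 2 again. Its log2 difference was -1.02 (SE 0.450, edgeR adjusted p = 0.238), and -0.40 without Water library 2. SerGCT, a serine tRNA for AGC and AGU codons, had summed counts of 35, 39 and 44 with Water and 18, 28 and 22 with EGME. Every EGME library was lower, but the test did not pass (-0.64, SE 0.387, edgeR adjusted p = 0.381). With its most abundant gene alone the log2 difference was -0.46 (edgeR adjusted p = 0.726). LeuCAG, a leucine tRNA for CUG codons, had 14, 34 and 30 with Water and 14, 28 and 14 with EGME, with overlap (-0.33, adjusted p = 0.796).

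CysGCA carries cysteine and is 1 of the tRNAs whose 5′ fragments start with a run of guanines, a feature known from human cells to let them fold into quadruplexes and inhibit translation. Its summed counts were 125, 166 and 229 with Water and 56, 146 and 75 with EGME. EGME library 2 lay within the Water range on the scaled level, with 201 CPM, and the other EGME libraries lay below it. The log2 difference was -0.79 (SE 0.371, edgeR adjusted p = 0.268). With the most abundant gene alone it was -0.74 (adjusted p = 0.391), and without EGME library 2 it was -1.32 and passed (adjusted p = 0.0427). The alanine tRNAs share that run of guanines: AlaAGC, whose first anticodon base is converted to inosine, was at -0.01, AlaCGC at -0.01, and AlaTGC (0.88) and AlaGGC (1.18) higher, all with edgeR adjusted p of 0.354 or more. In this list of 5 alanine and cysteine anticodons 2 were higher and 3 lower, and 0 passed (edgeR unadjusted p under 0.05 in 1, CysGCA).

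In contrast to LeuTAG, 4 anticodons were higher in every EGME library than in every Water library, and none passed the test. TrpCCA, the tryptophan tRNA that also primes reverse transcription of several retroviruses, had summed counts of 10, 8 and 12 with Water and 15, 23 and 12 with EGME. Its log2 difference was 0.89 (SE 0.449, edgeR adjusted p = 0.290), and 0.26 with the most abundant gene alone. ArgCCT, an arginine tRNA for AGG codons, had 16, 22 and 14 with Water and 18, 38 and 26 with EGME (0.79, SE 0.408, edgeR adjusted p = 0.295). On the raw counts these groups overlap or touch, and the separation rests on the scaling. ArgTCT (1.18) and AlaTGC (0.88) were the other 2, at 28 and 51 reads in all. Their raw counts overlapped too. The lowest EGME and highest Water libraries were at 5.68 and 5.45 CPM in ArgTCT and at 11.026 and 11.023 in AlaTGC. The Water mean of ArgTCT, 4.1 CPM, lay near the level of 3 reads in a library. Over all features 11.5% were higher in every EGME library and 7.96% lower in every EGME library, beside 4 of 24 and 2 of 24 members, the latter LeuTAG and SerGCT.

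The remaining abundant members had small log2 differences and overlapping groups. GlnCTG, a glutamine tRNA, had summed counts of 106, 149 and 143 with Water and 74, 129 and 108 with EGME, and overlapping scaled levels (-0.22, SE 0.340, edgeR adjusted p = 0.829). GlnTTG was at -0.31 and the proline tRNAs ProAGG at -0.24 and ProTGG at 0.14. MetCAT, a label that covers initiator and elongator methionine tRNAs together, was at 0.14, and at -0.20 without scaling. ProTGG also turned negative without scaling (-0.26). The lists of related tRNAs had 0 further calls. Those for tRNAs with the base queuosine (2 tested, 2 lower, median -0.39) and for aspartate and glutamine (3 tested, 3 lower, median -0.31, with asparagine under 20 reads) lay below the median of all features (0.08), and the proline and tryptophan primers (3 higher, 1 lower, median 0.14) near it. Those with inosine at the first anticodon position had 1 higher and 3 lower (median -0.04). Without scaling, where the median over all features was -0.27 in place of 0.08, the primers were 1 higher and 3 lower and the inosine list 4 lower. The 12 anticodons tested but not named by the rule ranged from -1.39 to 1.18, with a lowest edgeR adjusted p of 0.345.

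Over all tested anticodons, of the 24 members 10 were higher and 14 lower with EGME, with a median log2 difference of -0.04, against 0.08 over all 452 features, of which 55.8% were higher. All 10 tested glycine, valine, lysine, glutamate and histidine anticodons were lower, with a median of -0.87. ValCAC (-1.71) and ValAAC (-1.65) passed at edgeR adjusted p = 0.0257 each. Their leading genes had 2219 and 2209 reads, with close to the same counts in every library. Both calls may therefore rest on nearly the same reads. Without scaling 6 members were higher and 18 lower (median -0.41). Red blood cell miRNAs (6 of 6 fixed miRNAs found, none at 0 in any library) summed to 1.95% to 2.23% of counts with Water and 2.20% to 3.71% with EGME. Platelet miRNAs (5 of 5 found, none at 0) summed to 0.591% to 0.992% and 0.530% to 1.18%, the liver miRNA miR-122-5p held 0.0289% to 0.134% and 0.0838% to 0.151%, and rRNA held 0.567% to 1.08% and 0.855% to 1.04%. These miRNA and rRNA shares are of all assigned counts, with every tRNA gene copy counted. The member shares are of totals with near-identical tRNA copies counted once, so the bases differ. The 2 totals were 858906 and 566561 in Water library 3, and 608892 and 546082 in EGME library 1. The part of the miRNAs and rRNA in the tRNA values was not tested.

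CBZ was compared with Oil in the same way. Of 21 anticodons tested 0 passed with edgeR, 0 with the DESeq2 Wald test and 0 with limma. At an unadjusted edgeR p under 0.05 there were 3 (1 higher and 2 lower), and over all 355 features 0.00% passed after adjustment and 19.7% were under that unadjusted p (6.48% higher and 13.2% lower). The members had 6 higher and 15 lower (median log2 difference -0.40, against -0.17 over all features, of which 43.9% were higher). Under upper quartile scaling the median over all features became 0.33, and 11 were higher and 10 lower. Fully separated groups were found in 6 of 21 members (1 higher, 5 lower), against 29.0% of all features in either direction, 12.7% higher and 16.3% lower.

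**Figure D3:**
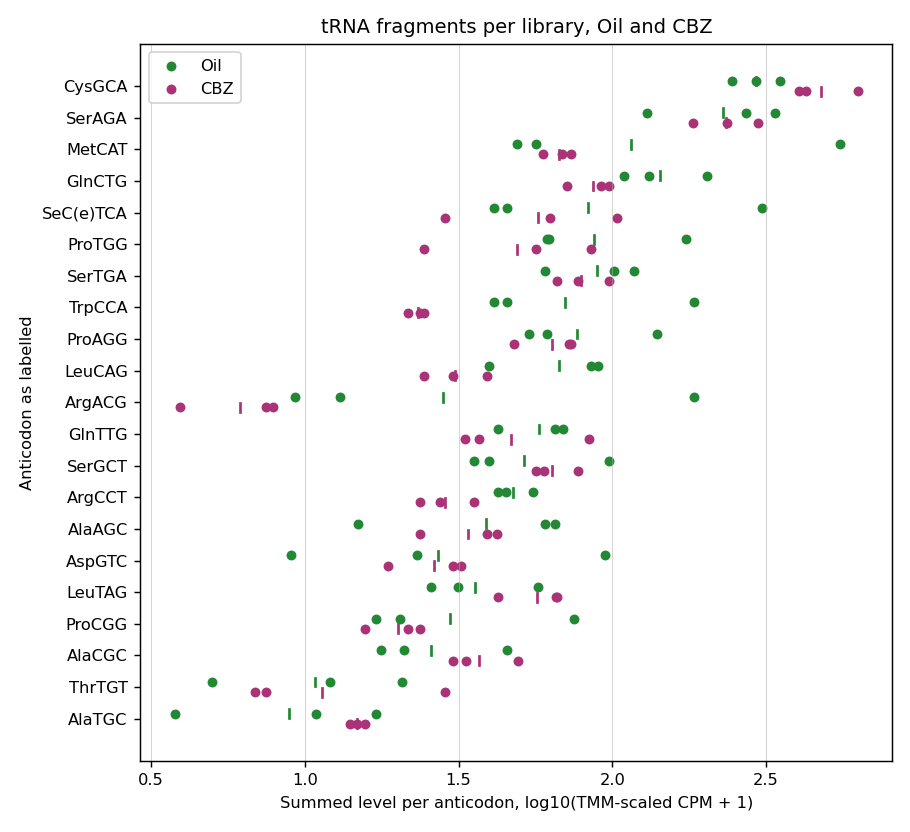
Level of each tested anticodon in the 3 Oil and 3 CBZ libraries, as log10 of TMM-scaled CPM plus 1, with points for libraries and vertical marks for group means of the plotted values. In several anticodons 1 Oil library, library 2, lies far to the right of the other 5 libraries, as in MetCAT at 548 CPM.

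Many of these differences changed when Oil library 2 was left out. It was the highest of the 6 libraries in 11 of 21 anticodons and the lowest in 4. MetCAT had summed counts of 12, 111 and 20 with Oil and 23, 21 and 18 with CBZ, which gave -1.69 (SE 0.974, edgeR adjusted p = 0.371), and 0.31 without that library. SeC(e)TCA had 10, 62 and 16 reads with Oil and 35, 8 and 19 with CBZ, at -0.995 (adjusted p = 0.545) and 0.58 without Oil library 2. ArgACG, an arginine tRNA read with inosine, had 3, 37 and 3 with Oil and 1, 2 and 2 with CBZ. Its log2 difference was -3.50 (SE 1.36, edgeR adjusted p = 0.223), and without Oil library 2 it had too few reads to be tested. Without Oil library 2 edgeR called 0 of 18 members, with 3 at an unadjusted p under 0.05. Of those 18, 10 were lower and 8 higher (median -0.10), and 6 had changed sign.

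**Figure D4:**
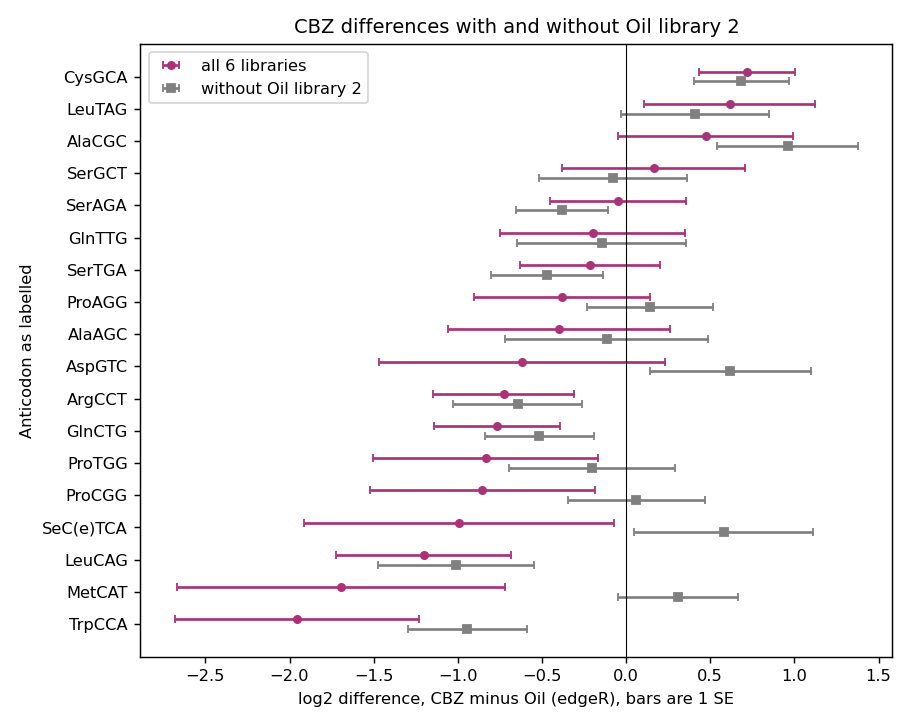
log2 difference of CBZ minus Oil with 1 SE from edgeR, for the 18 anticodons tested both with all 6 libraries (circles) and without Oil library 2 (squares). MetCAT moves from -1.69 to 0.31 and SeC(e)TCA from -0.995 to 0.58, while CysGCA stays at 0.72 and 0.69.

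CysGCA, LeuCAG, GlnCTG and TrpCCA were among the anticodons that kept their direction without Oil library 2. CysGCA had summed counts of 87, 59 and 88 with Oil and 137, 182 and 131 with CBZ, and scaled levels of 244 to 349 and 402 to 629 CPM. Every CBZ library was above every Oil library. The log2 difference was 0.72 (SE 0.285, edgeR adjusted p = 0.234), and 0.69 without Oil library 2 (adjusted p = 0.162). With the most abundant gene alone it was 0.46 (adjusted p = 0.513). LeuCAG had 21, 18 and 14 with Oil and 8, 11 and 9 with CBZ, at -1.20 (SE 0.519, edgeR adjusted p = 0.242), and -1.01 without Oil library 2. With its most abundant gene alone it was -0.61 (adjusted p = 0.532). GlnCTG had 27, 41 and 47 with Oil and 24, 28 and 28 with CBZ, at -0.77 (SE 0.374, adjusted p = 0.286), and -0.52 without Oil library 2. Its most abundant gene had 4, 10 and 4 reads with Oil and 3, 9 and 4 with CBZ, with overlap. TrpCCA had 10, 37 and 16 with Oil and 8, 6 and 7 with CBZ, at -1.96 (SE 0.727, adjusted p = 0.205), and -0.94 without Oil library 2. In all of these but CysGCA every CBZ library was below every Oil library on the scaled level, and none passed the test.

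LeuTAG, which fell with EGME, was not lower with CBZ. It had 14, 5 and 11 reads with Oil and 22, 12 and 20 with CBZ, at 0.61 (SE 0.507, edgeR adjusted p = 0.503) with overlapping libraries. The serine tRNAs were abundant in this table. SerAGA had summed counts of 84, 26 and 98 with Oil and 80, 86 and 56 with CBZ (-0.05, SE 0.405, edgeR adjusted p = 0.953), SerTGA was at -0.21 and SerGCT at 0.16. The sign of SerAGA and SerTGA turned with upper quartile scaling (0.44 and 0.28). Over the 6 tested anticodons with a long variable arm 2 were higher and 4 lower (median -0.13), and 4 were higher with upper quartile scaling. In the alanine and cysteine list 3 of 4 were higher (median 0.53, against -0.17 over all features), and 4 of 4 with upper quartile scaling. In the proline and tryptophan list 4 of 4 were lower (median -0.84), with ProTGG at -0.83 (-0.20 without Oil library 2, -1.43 with its most abundant gene alone) and ProAGG at -0.38 (0.14 without it), and 1 of them was higher with upper quartile scaling. Aspartate and glutamine tRNAs were lower in 3 of 3 (median -0.62, asparagine not tested), the queuosine list in 1 of 1 (AspGTC, -0.62) and those read with inosine in 4 of 4 (median -0.39), while with upper quartile scaling 1 of 3 and 3 of 4 in the first and last of these lists were higher. Without scaling 1 of the 4 read with inosine was higher. Without Oil library 2 AspGTC, which gives the first 2 of these values, was at 0.62, and among those read with inosine ProAGG was at 0.14 and ArgACG was not tested.

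GlnTTG, a glutamine tRNA, summed nuclear and mitochondrial genes. Of its 6 genes among the CBZ and Oil data 1 is on the mitochondrial chromosome, and that gene had 14, 4 and 5 reads with Oil and 4, 5 and 2 with CBZ. The summed log2 difference was -0.20 (SE 0.549, edgeR adjusted p = 0.844). With the mitochondrial gene apart the nuclear genes were at 0.32 (adjusted p = 0.773), and with the mitochondrial gene, the most abundant, alone the value was -1.47 (edgeR adjusted p = 0.256). The 8 anticodons tested but not named by the rule included LeuTAG and ranged from -0.85 to 0.61, with a lowest edgeR adjusted p of 0.368. Red blood cell miRNAs held 2.01% to 2.26% of counts with Oil and 1.94% to 2.12% with CBZ (6 of 6 found, none at 0), platelet miRNAs 0.882% to 1.23% and 1.11% to 1.48% (5 of 5 found, none at 0) and miR-122-5p 0.0252% to 0.0799% and 0.0783% to 0.239%. CBZ libraries held 2.73% to 3.14% rRNA, within the range of the Oil libraries. As in the EGME comparison, these shares are of all assigned counts, with every tRNA gene copy counted. The part of these RNAs in the tRNA values was not tested.

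Whether the toxicants differed in their effect was tested directly, as the EGME effect minus the CBZ effect over 330 features named in both tables. Of 19 members 0 passed with edgeR, 0 with the DESeq2 Wald test and 0 with limma, and 4 (2 in each direction) had an unadjusted edgeR p under 0.05. Of all features 0.00% passed, and 17.0% were under that p, 10.6% above 0 and 6.36% below. The difference was above 0 in 10 of 19 members and in 49.4% of all features. The smallest p was that of LeuTAG, at -2.95 (SE 0.740, edgeR adjusted p = 0.105), followed by CysGCA at -1.70 (SE 0.487, adjusted p = 0.105). TrpCCA was at 2.62 (SE 0.820, adjusted p = 0.119), ArgCCT at 1.33 (SE 0.585, adjusted p = 0.264) and ArgACG at 3.19 (SE 1.52, adjusted p = 0.303). The ArgACG value leans on Oil library 2, which held 37 of its 48 reads in the CBZ table. In TrpCCA and ArgCCT the groups were fully separated in both tables, with EGME above Water and CBZ below Oil. In either direction, 19.5% of all features were separated for EGME and 29.0% for CBZ. The share separated in both was not counted. With EGME the raw counts of both anticodons overlap or touch. TrpCCA was at 16.775 CPM in the lowest EGME library and at 16.535 in the highest Water library. With the most abundant gene alone TrpCCA was at 1.33 (adjusted p = 0.528). LeuTAG passed without Oil library 1 (-3.24, edgeR adjusted p = 0.0262) and without Oil library 2 (-2.62, adjusted p = 0.0451), and TrpCCA without Oil library 1 (3.17, adjusted p = 0.0402) and without Oil library 3 (3.16, adjusted p = 0.0384). In both of these TrpCCA fits Oil library 2 stayed in, with 37 TrpCCA reads against 10 and 16 in Oil libraries 1 and 3. For CBZ against Oil, TrpCCA was at -1.96, and at -0.94 without Oil library 2.

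**Figure D5:**
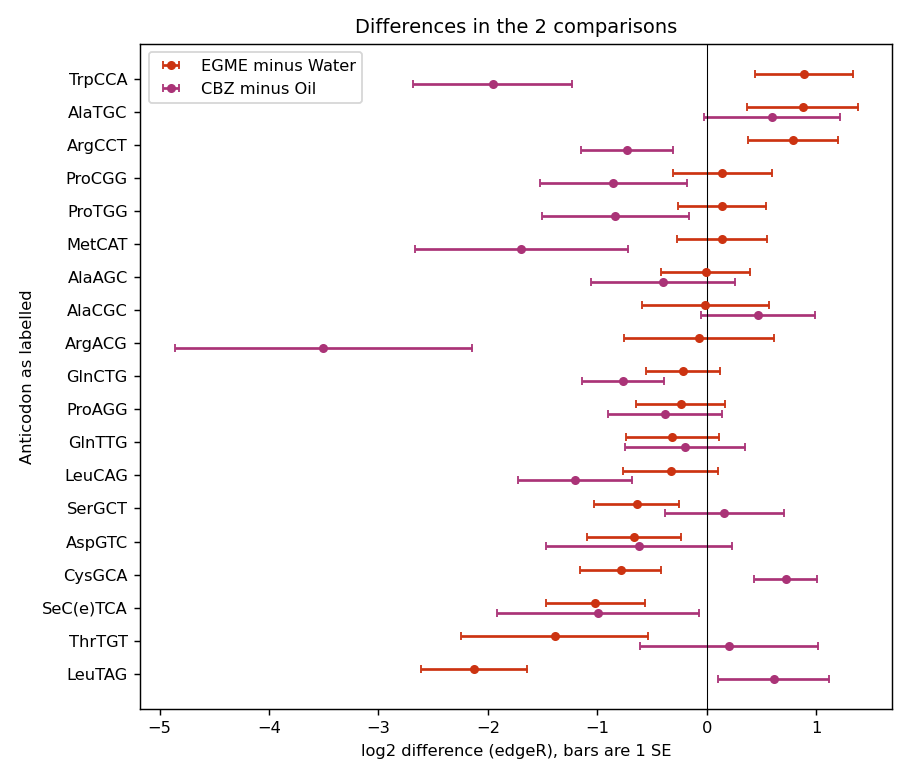
log2 difference of EGME minus Water and of CBZ minus Oil, with 1 SE from edgeR, for the 19 anticodons tested in both tables. LeuTAG lies at -2.13 with EGME and 0.61 with CBZ, and CysGCA at -0.79 and 0.72.

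Set side by side, 8 of these 19 anticodons were lower with both toxicants and 1, AlaTGC, higher with both (0.88 with EGME and 0.59 with CBZ). A further 5 were lower with EGME and higher with CBZ, among them LeuTAG, CysGCA and SerGCT, and 5 were the reverse, among them TrpCCA, ArgCCT and MetCAT. These signs are of the fitted values, most of which did not pass any test. At these depths a count of 0 allows up to 3 reads in a library, which is 4.08 to 5.68 scaled CPM in the Water and EGME libraries and 8.32 to 14.8 in the Oil and CBZ libraries. The vehicle mean of a tested member ranged from 4.11 to 238 CPM in the first table and from 9.56 to 295 in the second.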

How the data were processed

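Raw read counts per small RNA were deposited by the authors in 1 table per toxicant, with 3 libraries per group. The authors also deposited normalized values (a signal that is the raw count times 1 constant per library). These list 442 and 366 features, each with at least 11 counts in all, and served only an alternative. The submitters' processing notes name edgeR. Not given in the sources used here: the aligner, the genome build and how reads matching several genes were counted. No tRNA sequence or coordinate was used, and no miRNA sequence was needed.

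Groups and replicate numbers came from the library titles. Within each table tRNA genes were summed per anticodon. A gene was a copy of a more abundant gene of the same anticodon when their counts were close in each library. Close meant within 5 percent or 3 counts of each other (mean of at least 20 counts), or equal (lower means). All other classes stayed in the fit. Features with 20 or more reads over the libraries of a table entered edgeR 4.0.16 (quasi-likelihood, robust, TMM, under R 4.3.3), two-sided, with Benjamini-Hochberg adjustment over the table and a threshold of 0.05. SE is the log2 difference over the square root of F. The script was tested on simulated data with known changes. The alternatives included DESeq2 1.42.0 and limma 3.58.1 (log2 of value plus 1).

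The named anticodons are, per comparison, the 10 with most reads, the 5 with the smallest p and those that passed, and for the difference of effects the 5 with the smallest p; any other anticodon given with a value (such as LeuTAG with CBZ or ArgTCT) was chosen after its values were seen. The members, lists and tests were chosen with earlier results of these data known. Copies merged at any mean and mitochondrial genes apart were alternatives added after seeing the data.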

Additional observations from a re-analysis of the deposited data

How the results depend on the processing

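LeuTAG was the only member that passed with EGME. The count of 1 member passing became 0 with upper quartile scaling, the filterByExpr filter and limma. It was also 0 with every gene copy counted, all 12 libraries in 1 fit and the replicate block. In these settings 0 of all features passed. The count became 2 with tRNA anticodons alone, where ArgCCT also passed (1.26, edgeR adjusted p = 0.0156). In that fit 4 of all 34 anticodons passed, and the median log2 difference of the members was 0.44, against -0.04 in the main fit. Leaving out 1 library gave 0 to 2. For CBZ the count of 0 became 1 without a filter on low counts (ArgACG, -3.22, edgeR adjusted p = 0.0244). Oil library 2 held 37 of the 48 ArgACG reads in that table. With the filter, the count stayed at 0 whichever library was left out. For the difference of effects the count of 0 became 1 without the filter and 3 with tRNA anticodons alone, and ranged from 0 to 2 with 1 library left out. The causes were not tested.

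Of 641 values of 30 named results under alternatives, 38 had the opposite sign, in 13 results, and 17 results had none. With EGME, ProTGG was at -0.26 without scaling, -0.019 with limma, -0.034 with the most abundant gene alone and -0.016 with all 12 libraries in 1 fit. MetCAT was at -0.20, -0.48 and -0.033 without scaling, with the most abundant gene and with all 12 libraries. AlaAGC was at 0.58 with tRNA anticodons alone and 0.15 with copies merged at any mean. GlnCTG was at 0.12 with the most abundant gene, and at 0.33 with tRNA anticodons alone, where GlnTTG was at 0.12 and ProAGG at 0.23. With CBZ, upper quartile scaling gave ProAGG 0.19, SerTGA 0.28, GlnTTG 0.33 and SerAGA 0.44. SerAGA was at 0.16 without scaling and 0.012 with tRNA anticodons alone, SerGCT at -0.075 with copies merged at any mean, and GlnTTG at 0.32 with mitochondrial genes apart.

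With 1 library left out, EGME values ranged from -0.24 to 0.10 for AlaAGC, -0.15 to 0.38 for MetCAT and -0.36 to 0.30 for ProTGG. CBZ values ranged from -2.30 to 0.31 for MetCAT, -1.54 to 0.58 for SeC(e)TCA, -0.71 to 0.14 for ProAGG, -0.38 to 0.12 for SerAGA, -0.077 to 0.60 for SerGCT and -0.76 to 0.039 for GlnTTG.

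The libraries share only a number between groups. Deviations of same-numbered libraries correlated at 0.249, 0.205 and -0.0707 for Water and EGME and 0.0744, 0.153 and 0.188 for Oil and CBZ, and in the second table every library correlated best with its own number. With the replicate block 0 members passed in the EGME comparison (LeuTAG -2.06, edgeR adjusted p = 0.0798), AlaAGC was at 0.013 and SerAGA with CBZ at 0.0052.

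Depth limits these results: a tested member had a median of 115 or 84 reads over 6 libraries, reads shared by gene copies enter more than once, and Oil library 2 was the shallowest.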
